A study of Mus musculus with 28 samples.

Results

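Complex I is the NADH dehydrogenase of the mitochondrial inner membrane, the entry point of electrons from NADH into the respiratory chain. The genes described here are the 37 mouse gene symbols of the form Nduf followed by a, b, c, s or v and a number, out of 23995 symbols listed in the expression files. The rule takes in most nuclear-encoded subunits and leaves out the assembly factors (Ndufaf genes), which are given only for comparison. It also takes in a pair of symbols, Ndufa4 and Ndufa4l2, that are not held to be complex I subunits, since Ndufa4 belongs to cytochrome c oxidase. The acyl carrier subunit Ndufab1 is not matched by the rule, and the 7 mitochondrially encoded subunits were not analysed here.

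Complex I is L-shaped. The N module at the tip of its matrix arm oxidises NADH, the Q module below it passes the electrons to ubiquinone, and the membrane arm, with a proximal and a distal part, moves protons. The 7 core subunits among the members, such as Ndufv1, Ndufv2, Ndufs1, Ndufs3, Ndufs7 and Ndufs8, carry the redox chemistry, and the others are accessory. All are made on cytosolic ribosomes and imported into mitochondria. The complex is of particular interest in retinal ganglion cells (RGCs), whose axons form the optic nerve, because Leber hereditary optic neuropathy is mostly caused by mutations in its mitochondrially encoded subunits.

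Axon-TRAP was sequenced in 28 libraries from C57BL/6 mice carrying the RiboTag allele, which switches ribosomal protein L22 to a hemagglutinin-tagged form once Cre has acted. In Cre-positive mice, Pax6-alpha-Cre acts in progenitors of the peripheral retina, so that only part of the retina is labelled and other retinal cell types than RGCs are labelled with them. In the superior colliculus (SC), where RGC axons end, tagged ribosomes are held to come from these axons. Of the libraries, 24 hold FPKM, fragment numbers scaled to transcript length and to the size of the library, in 12 groups of 2 replicates. These are retina, SC of Cre-positive mice and SC of Cre-negative mice at the embryonic stage E17.5, the postnatal stages P0.5 and P7.5, and Adult. Cre-negative SC came from littermates with the RiboTag allele but no Cre, whose SC holds no tagged ribosome, and so measures RNA that is carried through the immunoprecipitation without a tag. The retina libraries were prepared from eyes, per the study of Cre-positive mice, and have no Cre-negative counterpart. Each library pooled tissue of several animals and its cDNA was amplified by PCR. The other 4 libraries held read counts of adult Cre-positive SC and adult retina, 1 library each with and without a run-off incubation, in which ribosomes finish and leave the mRNA while new initiation is blocked by harringtonine and 4E1RCat.

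The libraries differed widely in how much they detected. Between 1162 and 8769 of all symbols were above 0 FPKM in a library, and between 2 and 37 of the 37 members were. Replicates of 1 group often disagreed: of the symbols above 0 in either replicate, 88.8% were above 0 in both at P0.5 in Cre-positive SC, against 37.4% at E17.5 and 34.6% in the adult. The RGC markers Rbpms and Thy1 were listed at 0 in both P0.5 Cre-positive libraries and were under 0.5 FPKM in both P0.5 retina libraries, while Pou4f1 stood at 231 and 86.0 FPKM in Cre-positive SC, 705 and 191 in Cre-negative SC, and 4036 and 1226 in retina. Of the 10 RGC markers, 5 were tested by Cre at P0.5, and 1 was called higher and 0 lower. Slc17a6 was called higher with Cre, at 12.2 and 5.13 FPKM against 1.46 and 0.223 FPKM (2.37 ± 0.47, limma adjusted p = 0.00239). Nefl, with a difference of 2.75 ± 1.45, was not called (limma adjusted p = 0.202). Pou4f2 (-1.78 ± 1.04, limma adjusted p = 0.256) and Pou4f1 (-1.38 ± 2.78) ran the other way and were not called. Sncg was listed at 0 in every P0.5 SC library. The study calls the SC replicates biological, but the labels do not say that replicates came from separate litters. The p-values therefore measure the spread between these samples only, which may be partly technical.

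**Figure D1:**
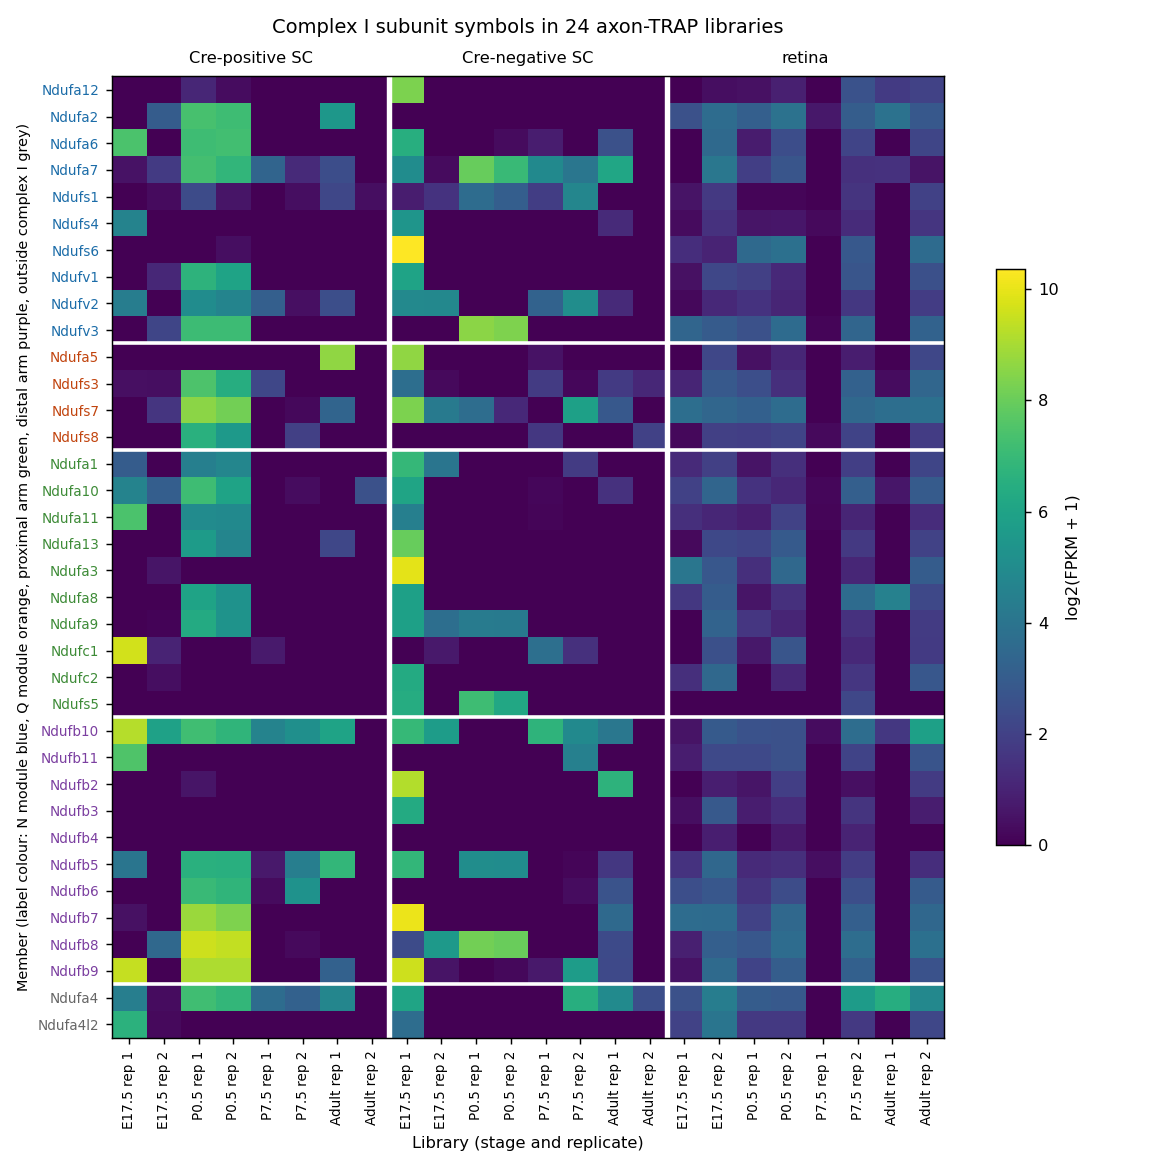
Heat map of log2(FPKM + 1) for 36 of the 37 members (rows, grouped by module, label colours as given on the axis) in the 24 libraries (columns, by tissue, stage and replicate; dark is 0 and yellow the highest value). The columns of P0.5 Cre-positive SC replicates 1 and 2 are alike and bright, whereas the E17.5 Cre-negative SC replicate 1 column stands apart from its replicate 2.

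Among the Cre-positive SC libraries, the 2 of P0.5 held the most members above 0. At P0.5, 26 of 37 members were above 0 in each Cre-positive replicate and 25 were above 0 in both. The median over the members was 64.2 FPKM in replicate 1 and 37.8 FPKM in replicate 2. Together the members made up 0.985% and 0.92% of all FPKM in these libraries. In the P0.5 Cre-negative SC libraries, 9 and 11 members were above 0, the median was 0, and the members made up 0.378% and 0.461% of all FPKM.

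At the other stages fewer members were above 0 in Cre-positive SC. At E17.5, 17 members were above 0 in each replicate, but only 8 in both, and their summed FPKM was 2851 in replicate 1 and 97.0 in replicate 2, which is 1.15% and 0.0487% of all FPKM. At least 100 FPKM was reached by 7 and 0 members at E17.5 and by 15 and 11 members at P0.5. At P7.5 the sums were 57.7 and 107 FPKM, and in the adult 685 and 5.22 FPKM. The high adult replicate 1 came largely from Ndufa5, a Q module accessory subunit, at 404 FPKM, which was listed at 0 in replicate 2. No member was above 0 in both Cre-positive replicates at every stage. In at least 1 replicate at every stage, 8 members were above 0, namely Ndufa10, Ndufa4, Ndufa7, Ndufb10, Ndufb5, Ndufs1, Ndufs7 and Ndufv2.

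The E17.5 Cre-negative replicate 1 library stood apart from its partner for these genes. It had 30 members above 0, with a median of 63.5 FPKM and a sum of 7224 FPKM, against 12 members and a sum of 177 FPKM in replicate 2. Its highest members were Ndufs6, a zinc-binding N module subunit, at 1321 FPKM, Ndufb7 at 1079 FPKM and Ndufa3 at 993 FPKM, and all 3 were listed at 0 in replicate 2. The same kind of gap was seen in retina at P7.5, where the members summed to 1.97 FPKM in replicate 1 and 213 FPKM in replicate 2, and 9 and 37 of them were above 0.

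**Figure D2:**
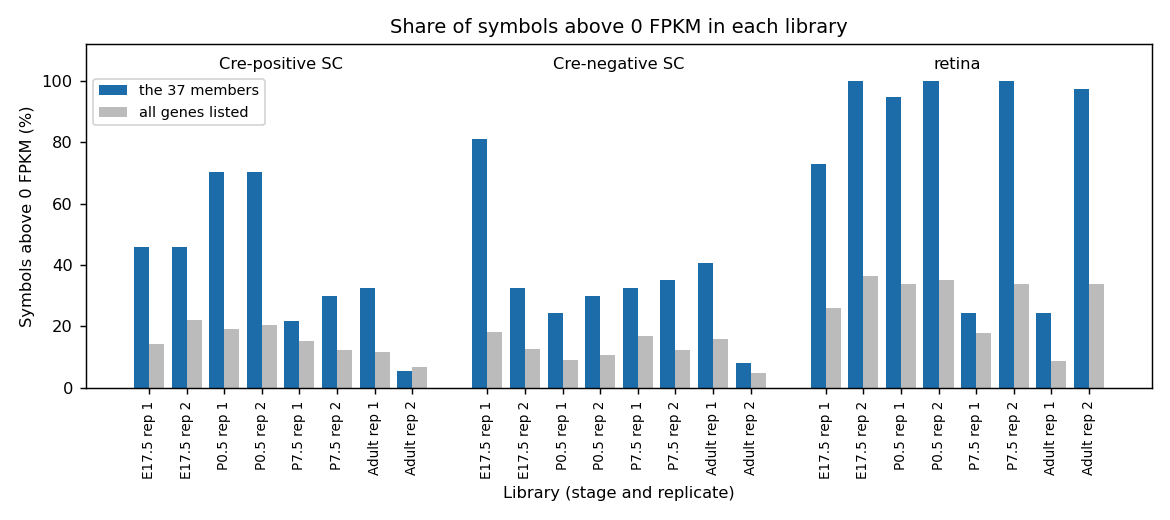
Bars give the percent of the 37 members (blue) and of all symbols listed (grey) above 0 FPKM in each of the 24 libraries, by tissue, stage and replicate. Members were above 0 in 70.3% of cases in both P0.5 Cre-positive SC replicates and in 94.6% and 100% in P0.5 retina, whereas the 2 replicates differ most in P7.5 and adult retina and in E17.5 Cre-negative SC.

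The first comparison asked whether members were more abundant after immunoprecipitation from Cre-positive than from Cre-negative SC. At P0.5 the highest members were in the distal membrane arm. Ndufb8, an accessory subunit of that arm, was at 766 and 684 FPKM in Cre-positive SC against 285 and 254 FPKM in Cre-negative SC. Ndufb9, a subunit of the LYR family that binds the acyl carrier protein, was at 543 and 542 FPKM against 0 and 0.18 FPKM. Ndufb7, which faces the intermembrane space, was at 443 and 326 FPKM in Cre-positive SC and listed at 0 in both Cre-negative libraries. In all 3 genes the Cre-positive values lay above both Cre-negative values, but Ndufb8 was also present in the Cre-negative background. On mm10 (GRCm38) Ndufb8 lies on chromosome 19 (44548572 to 44555440, minus strand), Ndufb9 on chromosome 15 (58933756 to 58939488, plus strand) and Ndufb7 on chromosome 8 (83566671 to 83571626, plus strand), and the values cover their exons.

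All 7 core subunits were above 0 in both P0.5 Cre-positive libraries. In the Q module, Ndufs7, which holds the last iron-sulphur cluster before ubiquinone, was at 374 and 285 FPKM against 12 and 1.32 FPKM in Cre-negative SC. Ndufs3, which contributes to the same module, was at 176 and 86.3 FPKM, and Ndufs8, which carries a pair of iron-sulphur clusters, was at 94.7 and 47.2 FPKM. Both were listed at 0 in the Cre-negative libraries. These genes lie on chromosome 10 (Ndufs7, 80249121 to 80256794), chromosome 2 (Ndufs3, 90894634 to 90904827) and chromosome 19 (Ndufs8, 3908863 to 3912774).

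Within the N module the core subunits varied. Ndufv1, which binds NADH and the flavin, was at 104 and 63.3 FPKM, and Ndufv2, its iron-sulphur partner, at 32.0 and 24.7 FPKM. Both were listed at 0 in Cre-negative SC. Ndufs1, the largest core subunit, was low in Cre-positive SC, at 4.10 and 0.488 FPKM, and lay below both Cre-negative values of 11.7 and 7.51 FPKM. Its accessory neighbours Ndufa2 (164 and 140 FPKM) and Ndufa6 (142 and 147 FPKM) were high in Cre-positive SC, and in Cre-negative SC only Ndufa6 was above 0, at 0.224 FPKM in replicate 2.

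A few members ran the other way at P0.5. Ndufs5, an accessory subunit on the intermembrane side, was listed at 0 in both Cre-positive libraries and was at 141 and 72.5 FPKM in Cre-negative SC. Ndufv3, an accessory subunit of the N module, was at 136 and 139 FPKM in Cre-positive and 378 and 333 FPKM in Cre-negative SC. Ndufa7, of the same module, overlapped, with 154 and 114 FPKM against 250 and 129 FPKM. These genes are therefore present in the untagged background, and for Ndufv3, Ndufs1 and Ndufs5 both background libraries exceeded both Cre-positive ones.

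**Figure D3:**
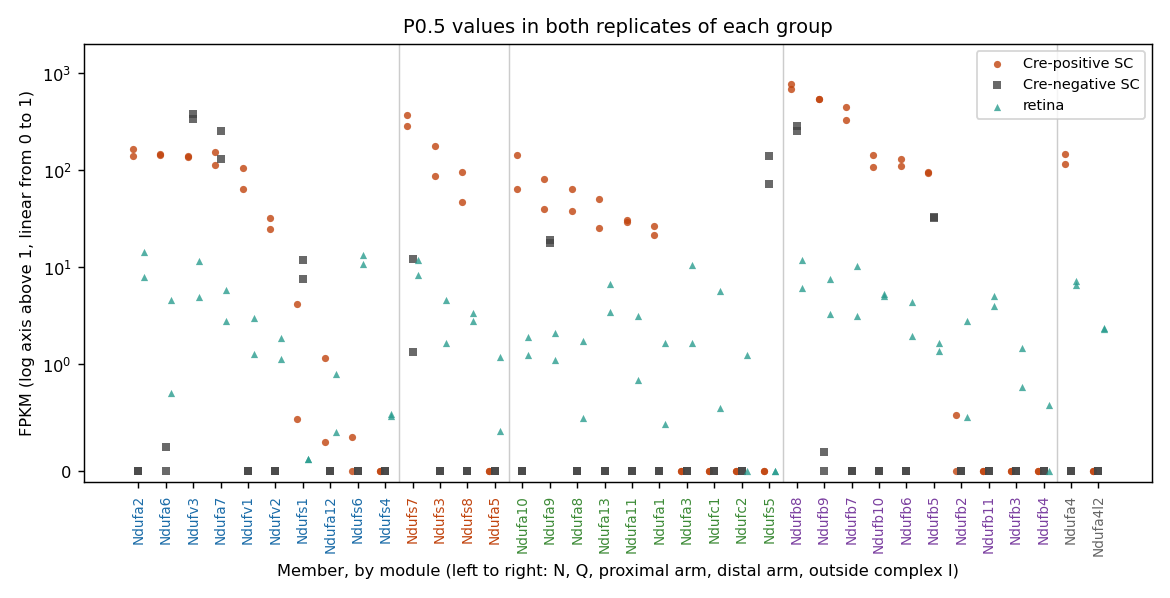
FPKM of 36 of the 37 members at P0.5 in both replicates of Cre-positive SC (orange circles), Cre-negative SC (grey squares) and retina (green triangles), on an axis that is logarithmic above 1 and linear from 0 to 1. Ndufb8, Ndufb9 and Ndufb7 are the highest in Cre-positive SC, many members have both grey squares at 0, and Ndufs5 shows the reverse order.

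Tested with limma on log2(FPKM + 1) over 5983 genes in the 16 SC libraries, with Benjamini-Hochberg adjustment and a threshold of 0.05, 12 of the 32 members tested were higher at P0.5 with Cre than without, and 1 was lower. The other 5 members did not reach 1 FPKM in 2 of these libraries. Over all genes tested, 28.1% were higher and 4.35% lower, so that the share of members called higher was close to that of genes in general. The median difference was 4.74 over the members and 0.78 over all genes on the log2(FPKM + 1) scale. Both Cre-positive values were above both Cre-negative values for 21 of the 32 members, against a background of 51.3% of genes, and below them for 3 members, against 10.6% of genes.

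The members called higher came from each module. In the Q module they were Ndufs8, with a difference of 6.09 ± 0.91 (SE; limma adjusted p = 0.00039, n = 2 against 2), and Ndufs3, with 6.96 ± 1.19 (limma adjusted p = 0.000967). In the N module 4 members were higher, led by Ndufa2 at 7.25 ± 1.5 (limma adjusted p = 0.00338) and including Ndufv1 at 6.36, Ndufa6 at 7.04 and Ndufv2 at 4.86. In the proximal arm Ndufa10, Ndufa8 and Ndufa1 were higher by 6.60, 5.65 and 4.62. In the distal arm Ndufb7, Ndufb10 and Ndufb6 were higher by 8.57, 6.97 and 6.91. The 1 member lower was Ndufs5, at -6.67 ± 1.53 (limma adjusted p = 0.00641).

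The size of a difference did not settle the call. Ndufb9 differed by 8.97 ± 3.29 and Ndufs7 by 5.90 ± 2.10, yet neither passed (limma adjusted p = 0.0617 and 0.0541). The fit takes 1 spread per gene over all stages, and the E17.5 Cre-positive replicates of Ndufb9 lay at 712 and 0 FPKM and the P7.5 Cre-negative replicates of Ndufs7 at 0 and 57.7 FPKM. Ndufb8 differed by 1.43 ± 1.39 (limma adjusted p = 0.614). With the 4 P0.5 SC libraries fitted alone, which was chosen after seeing the data, 19 of 25 members were higher and 2 lower, against 59.3% and 8.67% of genes. In this fit a gene at 0 in both Cre-negative libraries passed the filter only through its Cre-positive values. Its high shares are therefore partly set by the filter and give no added support. The same can hold for genes in the next fit and in the main fit. In the main fit, Ndufa8 passed the filter only through its P0.5 Cre-positive values and Ndufs5 only through its P0.5 Cre-negative values. Without the E17.5 libraries 18 of 26 were higher and 1 lower, against 40.9% and 6.23% of genes. Leaving out 1 library at a time left 4 members higher without Cre-positive replicate 1, 7 without Cre-positive replicate 2 and 5 without either Cre-negative replicate. Ndufs8, Ndufs3, Ndufa2 and Ndufb6 passed under each alternative run, and Ndufs5 did not pass without Cre-positive replicate 1.

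**Figure D4:**
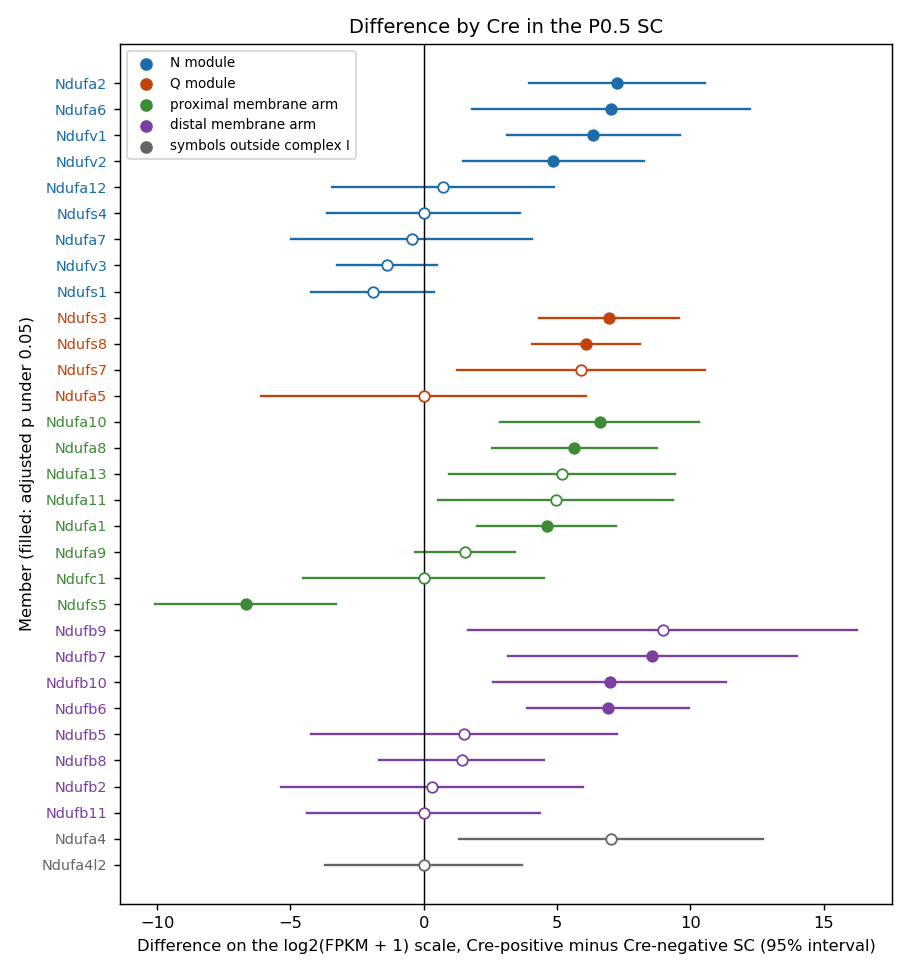
Difference between Cre-positive and Cre-negative SC at P0.5 for 31 of the 32 members tested, on the log2(FPKM + 1) scale, with 95% limma intervals, coloured by module; filled points had an adjusted p under 0.05. The 12 filled points on the right lie between 4.62 and 8.57, and Ndufs5, at -6.67, is the only filled point on the left.

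Some markers of other cells also differed at P0.5, in either direction. Among 4 microglia markers, C1qa was at 77.0 and 43.2 FPKM in Cre-negative SC and all 4 were listed at 0 in Cre-positive SC. This is the direction of Ndufs5 and the reverse of the members called higher. C1qa passed the filter on low values only through its P0.5 Cre-negative values. Among 5 astrocyte markers, 2 or 3 were above 0 in each SC library and Gfap and Aqp4 were listed at 0, with a summed level of 51.6 to 58.3 FPKM in Cre-positive and 15.9 to 38.3 FPKM in Cre-negative SC, and Aldh1l1 was called higher by 4.30. Aldh1l1 passed the filter on low values only through its P0.5 Cre-positive values. Of 5 oligodendrocyte markers, only Cnp was above 0 in these libraries, at 84.7 and 86.6 FPKM against 86.2 and 48.1 FPKM. Among 4 amacrine or bipolar markers, Slc6a9 was called higher by 2.43, at 4.86 and 4.10 FPKM against 0 and 0.0272 FPKM, and the other 3 were listed at 0. The summed level of 3 globin genes was 8.75 and 161 FPKM against 22.4 and 165 FPKM. The 3 markers of inhibitory SC neurons were listed at 0 in the 4 libraries. The part of these markers in the members' differences was not tested. In bulk samples, fewer cells or axons of a type and less RNA in each cannot be told apart.

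Genes that work with the members were looked at from fixed lists. Of 15 assembly factors in the files, 10 were tested in SC, and 4 were higher and 1 lower at P0.5, against 28.1% and 4.35% of all genes. Tmem126b, which helps to build the proximal arm, was at 58.5 and 48.9 FPKM in Cre-positive SC and listed at 0 in Cre-negative SC, and Ndufaf4, an assembly factor of the Q module, was at 17.6 and 20.2 FPKM against 0. Ecsit and Ndufaf7 were also higher, by 4.84 and 3.71, and Foxred1 was lower by 4.61 (a difference of -4.61) on the log2(FPKM + 1) scale. Of the 4 subunits of complex II, the succinate dehydrogenase, Sdha was higher by 5.56 and the other 3 were not called. Tmem126b, Ndufaf4, Ecsit and Sdha passed the filter on low values only through their P0.5 Cre-positive values, and Foxred1 only through its P0.5 Cre-negative values. Their calls are therefore partly set by the filter. Ndufab1 was listed at 0 in all 4 P0.5 SC libraries. Over the lists, the median difference was 0.77 for the assembly factors and 2.74 for complex II.

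At E17.5 1 member was called. Ndufa9, a proximal arm subunit with a dehydrogenase fold, was at 0 and 0.0679 FPKM in Cre-positive SC and 59.0 and 12.6 FPKM in Cre-negative SC, and was lower by -4.79 ± 0.85 (limma adjusted p = 0.0169). With a term for replicate number in the fit (a replicate block) it was not called. In the main fit no member was higher, and 1.1% of all genes were lower. The count was the same, 1 lower, without Cre-negative replicate 1, but it rests on other single libraries, since 0 members were lower without Cre-positive replicate 1 and 9 without Cre-negative replicate 2, while 3 members were higher without Cre-positive replicate 2. The E17.5 replicates differed widely in size, as Ndufc1 was at 803 and 1.04 FPKM and Ndufb9 at 712 and 0 FPKM in Cre-positive SC, beside 0 and 0.638 FPKM and 766 and 0.455 FPKM in Cre-negative SC. NOISeq, the method of the study, applied here to FPKM at a probability of 0.7, called 2 of 34 members higher and 14 lower at E17.5, against 2.56% and 6.87% of genes.

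At P7.5 and in the adult limma called 0 of 32 members in either direction, against 0% and 0.15% of all genes. At an unadjusted p under 0.05 there was 1 lower member at P7.5, Ndufs1, and there were 0 in the adult. NOISeq called 2 of 19 members higher (Ndufb5 and Ndufb6) and 4 lower (Ndufb11, Ndufb9, Ndufs1 and Ndufs7) at P7.5, against 3.93% and 4.44% of genes. In the adult it called 3 of 21 higher (Ndufa2, Ndufa5 and Ndufb5) and 3 lower (Ndufa7, Ndufb2 and Ndufb7), against 10.2% and 11.6%. At P0.5 it called 17 of 28 higher and 1 lower, against 28.9% and 6.05%. Ndufb10, Ndufa4 and Ndufa7 were the members most often seen in Cre-positive SC, above 0 in 7 of 8 libraries. Ndufb10 was at 24.1 and 34.7 FPKM there at P7.5, but Cre-negative SC held 106 and 29.5 FPKM at the same stage.

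The next comparison asked how members changed in Cre-positive SC between stages. From E17.5 to P0.5, 12 members rose and 0 fell, against a background of 25.1% of genes that rose. The median difference was 4.45 over the members and 0.69 over all genes. Ndufb8 rose by 7.75 ± 1.39 (limma adjusted p = 0.00154), from 0 and 10.3 FPKM to 766 and 684 FPKM. Ndufv3 rose by 6.03 ± 0.84 (limma adjusted p = 0.000262), from 0 and 3.49 FPKM to 136 and 139 FPKM, although its P0.5 level lay below the Cre-negative background. Others called included Ndufb7, Ndufs7, Ndufb6, Ndufs3, Ndufs8, Ndufa9, Ndufv1, Ndufa2 and Ndufa8. Among the 5 Q module members 4 rose. Without Cre-positive P0.5 replicate 1 the count fell to 2, and without replicate 2 to 6.

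From P0.5 to P7.5, 15 members fell and 0 rose, against 29.2% of genes that fell. The median difference was -4.86 over the members and -1.19 over all genes. Ndufb8 had the largest change, -9.36 ± 1.39 (limma adjusted p = 0.000424), to 0 and 0.211 FPKM, and Ndufv3 changed by -7.11 ± 0.84 (limma adjusted p = 7.81e-05) to 0 in both libraries. Core subunits that fell included Ndufs7, Ndufv1, Ndufs3 and Ndufs8. The count was 2 without P0.5 replicate 1 and 8 or 9 without any other single P0.5 or P7.5 library. From P7.5 to the adult limma called 0 members, with 0 at an unadjusted p under 0.05, against 0.0836% of genes. These stage changes, the Cre comparison and the comparison with retina share the P0.5 Cre-positive libraries, and so are not independent of each other.

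Whether the stage change differed between Cre-positive and Cre-negative SC was tested by the interaction of stage and Cre. Between E17.5 and P0.5 the change was more positive in Cre-positive SC for 11 members and more negative for 0, against a background of 23.9% of genes. Ndufs3 had an interaction of 8.56 ± 1.68 (limma adjusted p = 0.00344) and Ndufb7 one of 13.39 ± 3.45 (limma adjusted p = 0.0146). The background changed as well, since Ndufb7 was at 1079 and 0 FPKM in E17.5 Cre-negative SC and at 0 in both replicates at P0.5. The count was 0 without P0.5 Cre-positive replicate 1, 7 without its replicate 2 or without P0.5 Cre-negative replicate 2, and 17 without E17.5 Cre-negative replicate 2. Without E17.5 Cre-negative replicate 1, the library that stood apart, 9 members were more positive and 1 more negative.

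Between P0.5 and P7.5 the change was more negative in Cre-positive SC for 5 members, Ndufv2, Ndufa2, Ndufs3, Ndufs8 and Ndufa1, against 18.7% of genes. It was more positive for 0 members. The strongest by adjusted p was Ndufs8, at -5.95 ± 1.29 (limma adjusted p = 0.00687). The count was 0 without either P0.5 Cre-positive replicate, 1 without either P0.5 Cre-negative replicate, and 2 or 3 without P7.5 Cre-positive replicate 1 or 2 or P7.5 Cre-negative replicate 2. Without the E17.5 libraries, 14 members were more negative and 1 more positive, against 35.2% and 4.81% of genes. Between P7.5 and the adult limma called 0 members and 0% of genes, with 1 member at an unadjusted p under 0.05.

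In retina most members were seen at low levels. In P0.5 retina, 35 and 37 members were above 0, with medians of 1.96 and 2.75 FPKM and highest values of 10.7 FPKM for Ndufs6 and 14.2 FPKM for Ndufa2. Over the 8 retina libraries the highest means were those of Ndufa4, at 25.4 FPKM (0 to 87.0, median 13.4), Ndufb10, at 11.3 FPKM (0.274 to 58.2, median 5.08), and Ndufs7, at 9.74 FPKM (0 to 13.1, median 11.1). Ndufa2 and Ndufb7 followed at 8.34 and 6.77 FPKM. These ranges overlap, so the order of the 5 is not set apart from the spread. Only Ndufa10, Ndufa2 and Ndufb10 were above 0 in all 8.

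No stage change in retina was called. In the 8 retina libraries limma tested 35 members over 4080 genes and called 0 from E17.5 to P0.5, 0 from P0.5 to P7.5 and 0 from P7.5 to the adult, with 0 at an unadjusted p under 0.05 in each. All genes gave 0%, 0.0735% and 0%. The median differences of the members were -0.14, -0.61 and 0.22, beside -0.50, 0.32 and 0.10 over all genes, and the first turned to 0.56 under median-ratio scaling, which moved that of all genes to -0.12. The P7.5 and adult groups each hold 1 library with 9 members above 0 and 1 with 36 or 37, so the spread within these groups was wide. Leaving out P7.5 or adult replicate 1 also gave 0 calls.

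The last comparison of FPKM set Cre-positive SC, the axonal side, against retina, the side of the cell bodies. Eyes had fewer rounds of PCR than SC, so tissue and amplification cannot be told apart here. Without a Cre-negative retina, the untagged background of the retina side was not measured. At P0.5, 14 of 35 members tested were higher in Cre-positive SC and 1 was lower, against 32.7% and 2.01% of all 6321 genes. The median difference was 4.02 over the members and 1.10 over all genes. Ndufb8 was higher by 6.26 ± 1.64 (limma adjusted p = 0.0109), with 6.02 and 11.7 FPKM in retina, and Ndufb7 by 5.81 ± 1.29 (limma adjusted p = 0.00428), with 3.14 and 10.2 FPKM in retina. Ndufs6 was lower, at -3.49 ± 1.10 (limma adjusted p = 0.0284), with 0 and 0.319 FPKM in SC and 10.7 and 13.2 FPKM in retina. The 14 included Ndufv3 and Ndufa7, which were not called higher than in Cre-negative SC.

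This comparison depended on how low values were handled. With a pseudocount of 0.1 in place of 1, 0 members were called in either direction, and the count of higher members was 0 without P0.5 Cre-positive replicate 1, 6 without its replicate 2 and 5 without either P0.5 retina replicate. Ndufs6 was called in none of these and also not without the filter on low values. At E17.5 limma called 0 members (5 at an unadjusted p under 0.05, of which 4 were lower), against 1.31% of genes. Without E17.5 Cre-positive replicate 2, 6 members were higher there. At P7.5 it called 0 members with 0 at an unadjusted p under 0.05, against 0.0158% of genes, and in the adult 0 with 2 at an unadjusted p under 0.05, both lower (Ndufa8 and Ndufa12), against 0.0949% of genes.

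Not all members were seen in Cre-positive SC even at P0.5. Listed at 0 in both P0.5 Cre-positive libraries were 10 members, namely Ndufa3, Ndufa4l2, Ndufa5, Ndufb11, Ndufb3, Ndufb4, Ndufc1, Ndufc2, Ndufs4 and Ndufs5. Of these, 8 were above 0 in both P0.5 retina libraries, among them Ndufa3 at 1.62 and 10.4 FPKM and Ndufb11 at 3.93 and 5.0 FPKM. Others of the 8 were close to 0 there, as Ndufs5 was at 0.000939 and 0.0038 FPKM and Ndufs4 at 0.516 and 0.534 FPKM. Ndufb3 and Ndufb4, subunits of the distal arm, were listed at 0 in all 8 Cre-positive SC libraries, and Ndufb4 was above 0 in 3 of the 24 libraries, all of them retina. The genes are short, with a median transcript length of 704 bases over the 37 members against 2031 bases over all genes with a coding transcript. The 10 at 0 had a median of 772.5 bases and the 25 above 0 in both replicates 651 bases. These are medians over annotated transcripts, and the part of length in detection was not tested.

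Many complex I promoters carry motifs of factors tied to nuclear-encoded respiratory genes. Such motifs were looked for in all members, those called at P0.5 and those not. RefSeq promoter sequences (GRCm38.p6, 250 bases before to 50 after the start) were matched for 32 of the 37 members, as 34 promoters. On either strand, the nuclear respiratory factor 1 core GCGCANGCG was found in 26.5% of member promoters and in 6.25% of all promoters. The ETS core CCGGAAG, of the GABP type, was found in 11.8% and 8.86%, and the YY1 core AAGATGGCG in 14.7% and 1.40%. Of the 8 members with the first motif 3 were called higher at P0.5, and of the 5 with the third 0. Of the 4 with the second all 4 were (Ndufb6, Ndufb7, Ndufs3 and Ndufs8). Over all members 12 of the 32 tested were called higher, against 28.1% of all genes. Ndufb4 and Ndufs6, which are counted by motif here, were not among those tested. The counts are small, and a link between motif and call was not tested. The windows below are examples, chosen after the values were seen, of members called at P0.5, 5′ to 3′ on the gene's strand with the motif or its reverse complement in capitals. They are Ndufb7 and Ndufs3 (higher at P0.5, ETS core), Ndufa8 (higher at P0.5, first motif) and Ndufs5 (lower at P0.5, first motif).
Ndufb7, chr8:83566728-83566755, plus strand: cctagatgacCCGGAAGacactgaaggg
Ndufs3, chr2:90904731-90904758, minus strand: ccgcgtccgcCCGGAAGaagagtcactg
Ndufa8, chr2:36049348-36049377, minus strand: tagagcagtgCGCTTGCGCgtcgctggaga
Ndufs5, chr4:123718265-123718294, minus strand: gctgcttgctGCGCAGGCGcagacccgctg
The first motif is thus present both in a member that was higher and in the member that was lower. A match is a run of letters in the reference and says nothing of binding.

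The run-off libraries asked whether transcripts left the tagged ribosomes when elongation was allowed to finish in adult tissue. There was 1 library of each kind, so the differences have no replicate check. The SC libraries held 3262914 gene reads without and 349395 with run-off, and the retina libraries 4686284 and 315009. Reads were compared unscaled, so the lower totals with run-off enter every loss below. Counts scaled to library totals are given further on. In SC, 26 members had a read in either library, and 23 lost reads under run-off, against 84.9% of all genes with a read. In retina all 34 members with a read had fewer, against 92.1% of genes. With run-off, 10 of the 26 members had no read left in SC (38.5%, against 52.9% of genes) and 14 of 34 in retina (41.2%, against 60.5% of genes).

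The members with the most reads in adult SC without run-off were core and accessory subunits of the matrix arm and the proximal arm. Distal arm members also had many, such as Ndufb5 with 574 reads. Ndufs7 went from 1882 to 250 reads, which left 13.3% (95% exact interval of the ratio 11.6% to 15.2%). Ndufv1 went from 1278 reads to 1, which left 0.0782% (at most 0.437%). Ndufa10 and Ndufa8 each started at 705 reads and were left with 6 and 1. These intervals cover counting error only, and the whole SC library was left with 10.7% of its reads. Ndufv1, Ndufa10 and Ndufa8 thus lay below that share and Ndufs7 above it.

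Reads summed by module differed in the share left in SC. The Q module went from 3221 to 466 reads, the N module from 2425 to 62, the proximal arm from 1811 to 9 and the distal arm from 1474 to 51. In the Q module, Ndufs7 held 250 of the reads left. In the proximal arm every member with reads without run-off had fewer with it, and in the distal arm Ndufb5 (574 to 0 reads) and Ndufb10 (296 to 0 reads) were lost while Ndufb8 kept 47 of 343 reads. The members without fewer reads in SC were low: Ndufa12, an N module accessory subunit, went from 13 to 27 reads, Ndufa4 from 1 to 7 and Ndufb3 from 0 to 3. A count of 0 allows up to 3 reads, so Ndufb3 did not rise beyond that limit.

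In adult retina, members with many reads included Ndufa10 (228 to 8), Ndufb9 (216 to 0), Ndufb8 (205 to 40) and Ndufb10 (187 to 12). The whole library was left with 6.72% of its reads. Ndufb8 kept 19.5% (13.5% to 27.5%) in retina and 13.7% (9.88% to 18.6%) in SC. The smallest losses were those of Ndufb7 (22 to 20 reads) and Ndufa6 (24 to 20 reads), whose intervals include no change. Scaled to library totals, 19 of 26 members were lower in SC (73.1%, against 72.3% of genes) and 23 of 34 in retina (67.6%, against 71.9% of genes).

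**Figure D5:**
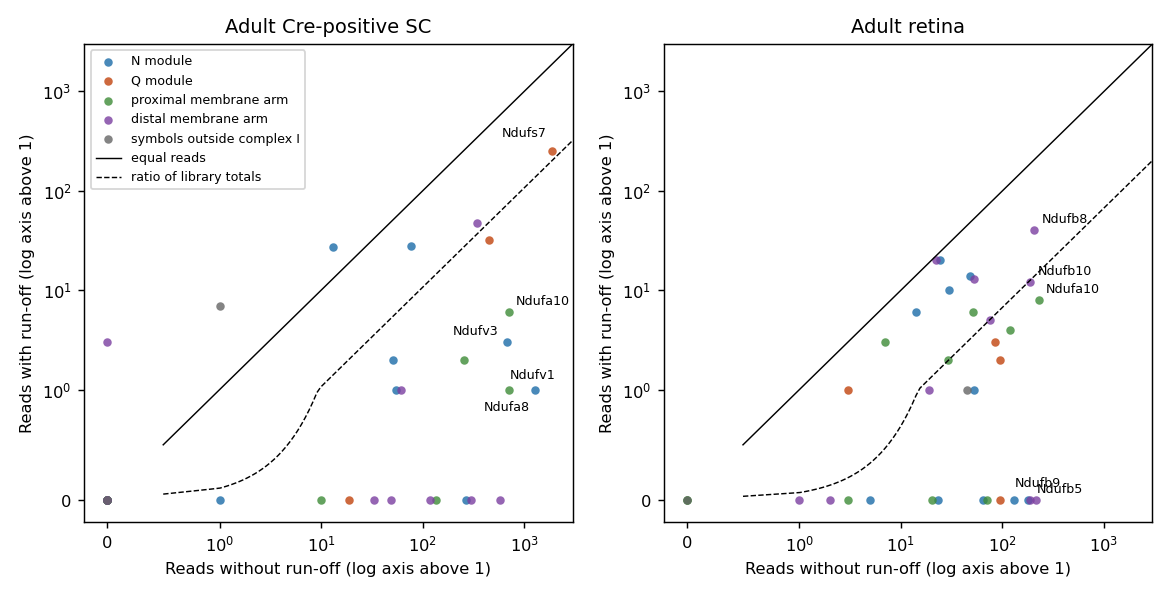
Reads with run-off against reads without run-off for 36 members in adult Cre-positive SC (left) and adult retina (right), 1 library each, on axes that are logarithmic above 1; the solid line marks equal reads and the dashed line the ratio of library totals. Of the 36 members drawn, the 5 with the most reads without run-off are named, and Ndufs7, with 1882 and 250 reads, lies above the dashed line in SC.

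The run-off library also bears on what the adult FPKM files show. In adult Cre-positive SC without run-off, 23 members had at least 10 reads. Of these, 14 were listed at 0 FPKM in both adult Cre-positive libraries, which is 60.9%, against 54.0% of all genes with at least 10 reads. Ndufv1, with 1278 reads, Ndufa8, with 705, and Ndufv3, with 683, were among them. Of the 23 members, 20 were above 0 in both P0.5 Cre-positive libraries. A member at 0 in the adult FPKM files was therefore often present in the separately made adult library, and the depth of the FPKM libraries is unknown. There is no Cre-negative run-off library among the 4, so the untagged background of these reads was not measured here.

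Of the 37 members, 15 have an annotated span that overlaps another protein-coding gene, among them Ndufb8, Ndufb9, Ndufb6, Ndufs3, Ndufs1 and Ndufa2. Strand was not stated for these libraries, so reads of overlapping genes may not be told apart. The authors used a realignment setting meant to limit mapping to pseudogenes, and values of any member with a near-identical copy remain uncertain.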

How the data were processed

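Members and comparison lists were chosen with earlier results of these data known. Per the labels and the study's methods, the authors mapped reads to mm10 with TopHat2 2.0.12 and deposited FPKM per gene symbol from Cufflinks 2.2.1 for 24 libraries, and unnormalized read counts per gene from HTSeq 0.6.1p1 for 4 run-off libraries. Total gene reads of the run-off libraries are given in the report. FPKM low values did not give whole reads in every library, so depth is unknown there, no count model was run and the number of FPKM libraries limits precision.

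Groups came from the sample labels. FPKM were tested as log2(FPKM + 1) with limma 3.58.1 (trend, robust; statmod 1.5.0, R 4.3.3), on genes with at least 1 FPKM in 2 libraries, in 3 fits (16 SC, 8 retina, and 16 Cre-positive SC and retina libraries), with Benjamini-Hochberg adjustment over all genes in each of 17 contrasts. Differences on this scale understate changes of low genes. In all, 4 genes with a missing entry were left out. The fit was tested on simulated data. NOISeq's statistic was recomputed with zeros set to 0.5. Run-off reads were compared unscaled, with exact 95% intervals that cover counting error only, from Python 3.11.15 and scipy 1.17.1. Alternatives were pseudocount 0.1, no filter, median-ratio scaling, a replicate block, each library left out, NOISeq, and, after seeing the data, P0.5 libraries alone and no E17.5 libraries.

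The genes named were core subunits, the 5 highest members by mean FPKM in Cre-positive SC and in retina, the largest called differences (or smallest p) of each contrast, members at 0, the 5 with most run-off reads per tissue, those whose reads did not fall, and Ndufa4 and Ndufa4l2. Others were named after their values were seen. Of these members 1 is counted in the totals but not reported here. Gene positions came from GENCODE M21 (GRCm38, the assembly of mm10), and promoters from RefSeq.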

Additional observations from a re-analysis of the deposited data

Results flagged for a closer look

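The stage change of 12 members differed between Cre-positive and Cre-negative SC by limma's interaction of stage and Cre. Between E17.5 and P0.5 the interaction was positive, on the log2(FPKM + 1) scale, for Ndufa1 (8.58), Ndufa13 (9.18), Ndufa8 (8.59), Ndufa9 (6.35), Ndufb6 (6.91), Ndufb7 (13.39), Ndufs3 (8.56), Ndufs7 (11.40), Ndufs8 (6.09), Ndufv1 (8.78) and Ndufv2 (7.52). Between P0.5 and P7.5 it was negative for Ndufa1 (-5.52), Ndufa2 (-7.25), Ndufs3 (-6.85), Ndufs8 (-5.95) and Ndufv2 (-7.26). Ndufa1, Ndufs3, Ndufs8 and Ndufv2 were called in both, and both interactions use the same P0.5 libraries. Over all genes, 23.9% were called positive in the first interaction and 18.7% negative in the second.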

How the results depend on the processing

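No reported direction of a called member turned under an alternative, and of the single-member results 461 kept their side of the threshold and 225 kept their direction but did not pass. With pseudocount 0.1, Cre-positive SC against retina at P0.5 gave 0 members higher and 0 lower, the P0.5 to P7.5 interaction gave 3 lower, and 1 member was lower at P0.5 than at E17.5. Without the filter, the P0.5 to P7.5 interaction gave 2 lower and the comparison with retina at P0.5 gave 0 lower. Fitted alone, the P0.5 SC libraries gave 19 members higher and 2 lower by Cre, counts partly set by the filter on low values. Without the E17.5 libraries the P0.5 to P7.5 interaction gave 1 higher and 14 lower. NOISeq by Cre called 2 higher and 14 lower at E17.5, 2 and 4 at P7.5, and 3 and 3 in the adult. The cause of these changes was not tested. Median-ratio scaling kept each count, and moved the median of all genes by -0.16 in the P0.5 comparison with retina, -0.11 in the E17.5 to P0.5 interaction, and 0.38 and -0.29 in the first and second retina stage changes.

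Deviations of same-numbered Cre-positive and Cre-negative libraries correlated across genes at 0.565, 0.427, 0.456 and 0.081 (E17.5 to adult). Same-numbered libraries may therefore share a source of spread at stages before the adult. The adult value was low and the labels name no pairing, so the main fits used none. With a replicate block, members called lower by Cre at E17.5 went to 0, those higher at P0.5 to 16, and those lower in the P0.5 to P7.5 interaction to 8. The shares of all genes called with the block are not given, so these counts cannot be told from a general change in calls.

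With each library left out in turn, the counts by Cre ran from 4 to 7 higher and 0 to 1 lower at P0.5, and from 0 to 3 higher and 0 to 9 lower at E17.5. From E17.5 to P0.5 they ran from 2 to 12 higher and 0 to 3 lower, and from P0.5 to P7.5 from 2 to 9 lower. The first interaction ran from 0 to 17 higher and 0 to 3 lower, the second from 0 to 4 lower. Against retina they ran from 0 to 6 higher and 0 to 0 lower at P0.5, 0 to 6 higher and 0 to 1 lower at E17.5, and 0 to 1 higher in the adult. A group left with 1 library was assumed to vary like the others. For the runs with a library left out, shares of all genes called are not given, so their counts are not particular to the members. Depth is unknown for the FPKM libraries, so a value of 0 may reflect few reads.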
